A study of Mus musculus with 4 samples.

Results

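Gene-desert peaks were the accessible regions of brain macrophages whose centre lay more than 100 kb from the body of every protein-coding gene. They were taken by position alone from the authors' merged list of peaks on chromosomes 1 to 19, with gene bodies from RefSeq on GRCm38.p6, the assembly behind mm10. The rule found 3357 of 72875 merged peaks (4.61%), and the other 69518 lay within that distance of a gene or inside one. Sorted mouse brain parenchymal macrophages had been profiled by Omni-ATAC in 4 libraries, of which 2 were labelled MDM and 2 YSM. The series title speaks of monocyte-derived macrophages, taken here to be MDM, while YSM is left unexplained. Both groups carried the genotype Ms4a3-Ai9 and the treatment DR-3x. Ms4a3 is expressed in progenitors of granulocytes and monocytes, and Ai9 is a fluorescent reporter allele that Cre switches on. What DR-3x means, the age of the mice and whether the 2 libraries of a group are from different animals are not in the labels. The deposited lists hold intervals without a value per library, so depth, replicate spread and markers of the sorted cells were not analysed here, and no comparison below has a test.

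Omni-ATAC uses the Tn5 transposase to cut open chromatin, and clusters of cuts appear as peaks at promoters and at distal enhancers. Gene deserts are long stretches without protein-coding genes. Some of them hold enhancers that act over long distances on a flanking gene, often a developmental regulator, and others hold few known elements. An enhancer does not always act on the nearest gene, so the flanking genes below give a position and not a target.

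Some desert peaks lay at the start of a long non-coding RNA gene, and there the sequence of the open region is at hand. The windows below run from 250 bases before to 50 after the annotated start, from RefSeq on GRCm38.p6, 5′ to 3′ on the strand of the gene, with the bases covered by the peak in capitals. Mexis and Morrbid were chosen after their values were seen, because they are non-coding RNAs known from macrophages and myeloid cells. Mexis is known for its part in the regulation of Abca1, the cholesterol exporter, and Morrbid for restraining Bcl2l11, which encodes the cell death factor Bim. Mexis lay at chr4:53270183-53270482 on the minus strand, between Abca1 and Slc44a1. Morrbid lay at chr2:128429302-128429601 on the minus strand, between Bcl2l11 and Spdye4c. Both peaks had 4 subpeaks, that is 4 library-level calls merged into 1 interval, and neither was in the YSM or the MDM list.
Mexis: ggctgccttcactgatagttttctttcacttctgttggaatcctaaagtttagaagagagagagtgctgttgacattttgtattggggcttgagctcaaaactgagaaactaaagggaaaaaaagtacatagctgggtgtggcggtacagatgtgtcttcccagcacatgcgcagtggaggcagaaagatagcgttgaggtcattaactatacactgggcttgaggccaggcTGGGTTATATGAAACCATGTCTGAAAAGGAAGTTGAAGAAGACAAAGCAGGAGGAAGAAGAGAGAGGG
Morrbid: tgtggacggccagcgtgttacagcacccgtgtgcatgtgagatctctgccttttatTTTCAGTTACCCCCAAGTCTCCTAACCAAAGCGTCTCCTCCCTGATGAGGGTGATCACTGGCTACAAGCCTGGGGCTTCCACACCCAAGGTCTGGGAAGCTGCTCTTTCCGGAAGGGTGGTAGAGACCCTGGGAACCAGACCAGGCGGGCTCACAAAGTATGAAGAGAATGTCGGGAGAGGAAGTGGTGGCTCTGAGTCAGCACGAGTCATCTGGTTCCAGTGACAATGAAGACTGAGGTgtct

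The other 4 windows are shown because their peak was in the YSM list, the authors' list of differential peaks for that group. They are all such windows among the non-coding RNA starts. For 1700030C10Rik the window was chr12:20815730-20816029 on the minus strand, and the peak had 3 subpeaks. For Gm31003 it was chr14:114865004-114865303 on the plus strand, with 1 subpeak. For Gm41484 it was chr16:87246644-87246943 on the minus strand, with 3 subpeaks. For Gm46220 it was chr10:38059091-38059390 on the plus strand, with 2 subpeaks, and this peak lay 761203 bp from the nearest protein-coding gene.
1700030C10Rik: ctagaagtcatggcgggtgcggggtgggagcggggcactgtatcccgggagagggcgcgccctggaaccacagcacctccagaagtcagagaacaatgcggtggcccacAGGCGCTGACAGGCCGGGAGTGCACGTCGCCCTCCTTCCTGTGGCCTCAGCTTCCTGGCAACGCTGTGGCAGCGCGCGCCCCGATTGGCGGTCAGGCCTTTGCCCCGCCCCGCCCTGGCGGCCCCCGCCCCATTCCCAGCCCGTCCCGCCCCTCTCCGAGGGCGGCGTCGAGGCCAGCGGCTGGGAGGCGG
Gm31003: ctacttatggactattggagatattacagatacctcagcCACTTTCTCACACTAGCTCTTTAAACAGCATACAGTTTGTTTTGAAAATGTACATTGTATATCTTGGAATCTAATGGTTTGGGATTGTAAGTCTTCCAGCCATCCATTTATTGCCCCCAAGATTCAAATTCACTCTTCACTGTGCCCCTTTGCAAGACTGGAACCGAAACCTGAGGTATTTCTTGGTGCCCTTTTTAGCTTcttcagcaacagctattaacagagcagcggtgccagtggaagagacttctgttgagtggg
Gm41484: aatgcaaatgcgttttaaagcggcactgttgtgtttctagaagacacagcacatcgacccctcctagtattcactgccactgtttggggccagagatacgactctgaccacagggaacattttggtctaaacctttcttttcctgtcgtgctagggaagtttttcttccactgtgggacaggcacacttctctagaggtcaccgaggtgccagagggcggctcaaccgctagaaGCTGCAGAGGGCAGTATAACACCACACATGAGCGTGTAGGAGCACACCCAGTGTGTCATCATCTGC
Gm46220: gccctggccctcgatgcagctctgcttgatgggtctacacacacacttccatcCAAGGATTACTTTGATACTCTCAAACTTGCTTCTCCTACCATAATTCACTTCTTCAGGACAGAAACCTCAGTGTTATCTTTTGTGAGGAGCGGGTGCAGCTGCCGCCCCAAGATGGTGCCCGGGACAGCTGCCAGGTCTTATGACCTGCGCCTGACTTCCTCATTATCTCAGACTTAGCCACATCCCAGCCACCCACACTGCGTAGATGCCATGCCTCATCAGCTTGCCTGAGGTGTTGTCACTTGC

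Desert peaks overlapped such a window in 60 of 1704 long non-coding RNA genes (3.52%), and the annotated start itself lay inside the peak in 37. At 39 of the 60 genes the peak had 4 or more subpeaks, against 48.7% of all desert peaks. At 4 the peak was in the YSM list and at 0 in the MDM list. Over all desert peaks these shares were 3.87% and 0.626%, and the counts are too small to set apart from them. Motif letters were searched on both strands of the 60 windows. GAGGAAGT, the letters of a PU.1 site, were in 10 windows (16.7%, exact 95% interval 8.29 to 28.5), against 3.20% of all 32851 promoter windows of the same length and 4.74% of 1413 long non-coding RNA windows under peaks nearer to genes. TTGCNNAA, for C/EBP, was in 12 windows (exact 95% interval 10.8 to 32.3%), against 10.8% and 8.56%. TGTGGTT, for RUNX, was in 6 (10.0%) against 5.27% and 4.88%, and TGANTCA, for AP-1, was in 5 (8.33%) against 7.81% and 6.86%. TCACGTGA, for MITF and TFE, was in 1 (1.67%) against 0.974% and 1.56%. Within the bases covered by a peak, the PU.1 letters and the C/EBP letters each occurred in 7 of the 60 windows. The AP-1 letters occurred there in 4, the RUNX letters in 2 and the MITF and TFE letters in 1. Among the 6 windows printed here, the matches within a peak were Morrbid and Gm46220 for PU.1 and Morrbid for AP-1, with none for the other letters. A match of letters describes the sequence and is not evidence of binding.

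Peaks in deserts were in the authors' differential lists more often than other peaks were. The YSM list held 130 of the 3357 desert peaks (3.87%, exact 95% interval 3.25 to 4.58), against 964 of the 69518 others (1.39%, 1.30 to 1.48) and 1.50% of all merged peaks on these chromosomes. The MDM list held 21 desert peaks (0.626%, 0.388 to 0.955), against 87 of the others (0.125%, 0.100 to 0.154) and 0.148% of all merged peaks. Seen from the lists, 11.9% of the 1094 YSM-listed peaks (10.0 to 13.9) and 19.4% of the 108 MDM-listed peaks (12.5 to 28.2) lay in deserts. The direction of a listed peak, higher accessibility in the named group, rests on the list's name. All intervals given here cover counting error only, and neighbouring peaks are not independent.

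The YSM share differed with distance from genes. Within genes it was 1.54% of 43714 peaks, from 10 to 100 kb outside them 1.28% of 12826 (1.09 to 1.49), from 100 to 200 kb 2.85% of 2001 (2.16 to 3.68), and from 200 to 500 kb 5.30% of 1113 (4.06 to 6.78). Beyond 500 kb it was 5.76% of 243 (3.19 to 9.48), with an interval that overlapped the bin before. The MDM share was 0.187% from 10 to 100 kb, 0.650% from 100 to 200 kb and 0.719% from 200 to 500 kb. Beyond 500 kb 0 of 243 peaks were MDM-listed, which allows a share of up to 1.51%. The peaks themselves thinned out over the same bins, from 24.2 per Mb at 10 to 100 kb to 9.95, 4.18 and 1.12 per Mb in the desert bins. Per 100 Mb, YSM-listed peaks numbered 31.0 at 10 to 100 kb, then 28.4, 22.4 and 6.50. MDM-listed peaks numbered 4.53 per 100 Mb at 10 to 100 kb, then 6.48, 3.04 and 0. The YSM share was thus higher in deserts while the number of YSM-listed peaks per length of genome was not.

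**Figure D1:**
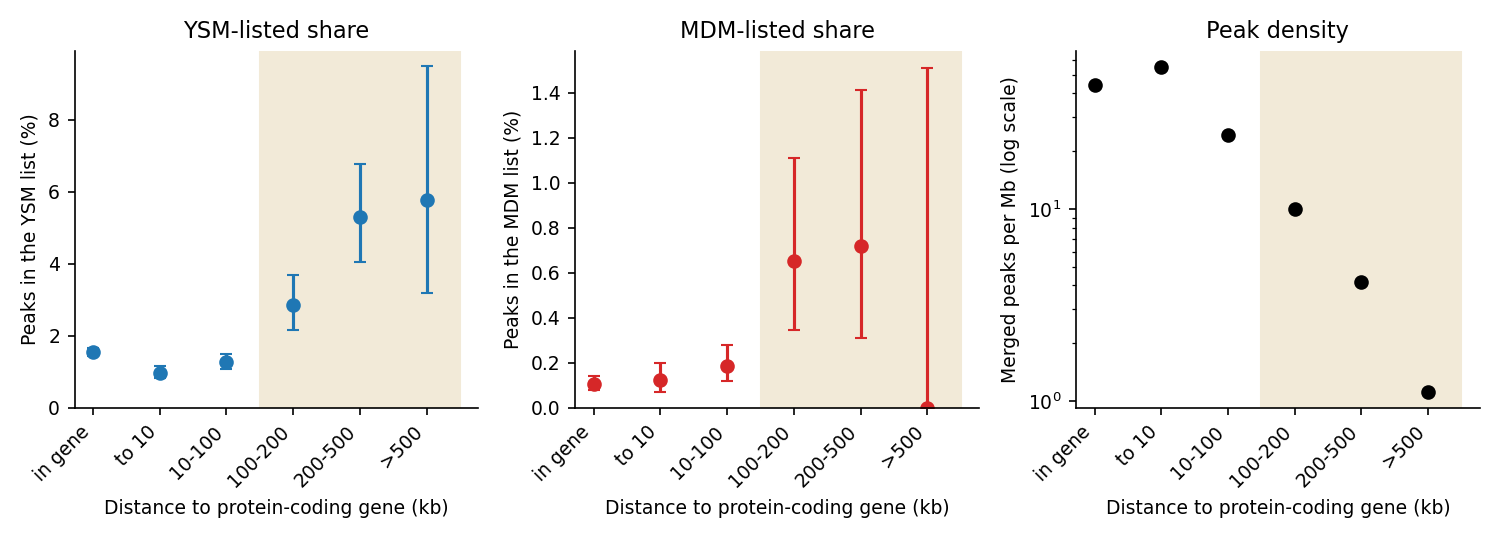
Share of merged peaks in the YSM list and in the MDM list (percent, with exact 95% intervals as bars) and merged peaks per Mb (log axis), by distance from the nearest protein-coding gene (kb), with the desert bins shaded. The YSM share is 1.28% at 10 to 100 kb and 5.30% at 200 to 500 kb.

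The 3 peaks just inside lay 100021, 100038 and 100083 bp from a gene and the 3 just outside 99898, 99899 and 99932 bp, and none of the 6 was listed. From 80 to 100 kb 19 of 880 peaks were YSM-listed (2.16%), and from 100 to 120 kb 18 of 630 (2.86%). The median desert peak lay 175115 bp from a gene, 1356 (40.4%) lay over 200000 bp away, 243 (7.24%) over 500000 bp and 41 (1.22%) over 1000000 bp.

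Fewer library-level calls stood behind a desert peak than behind other peaks. At most 3 subpeaks, which means that at least 1 of the 4 libraries had no call, were found in 1723 desert peaks (51.3%, 49.6 to 53.0) and in 41.7% of the others (41.4 to 42.1). Among the others this share was 26.1% at gene edges (within 1000 bp of a gene's end), 47.2% inside genes and 44.8% outside genes within 100 kb. With distance it went from 48.9% at 100 to 200 kb to 53.5% and then 61.7% beyond 500 kb. A single subpeak stood behind 25.7% of desert peaks and 19.9% of the others. The median was 3 subpeaks against 4. The median width was 234 bp in deserts and 236 bp elsewhere.

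**Figure D2:**
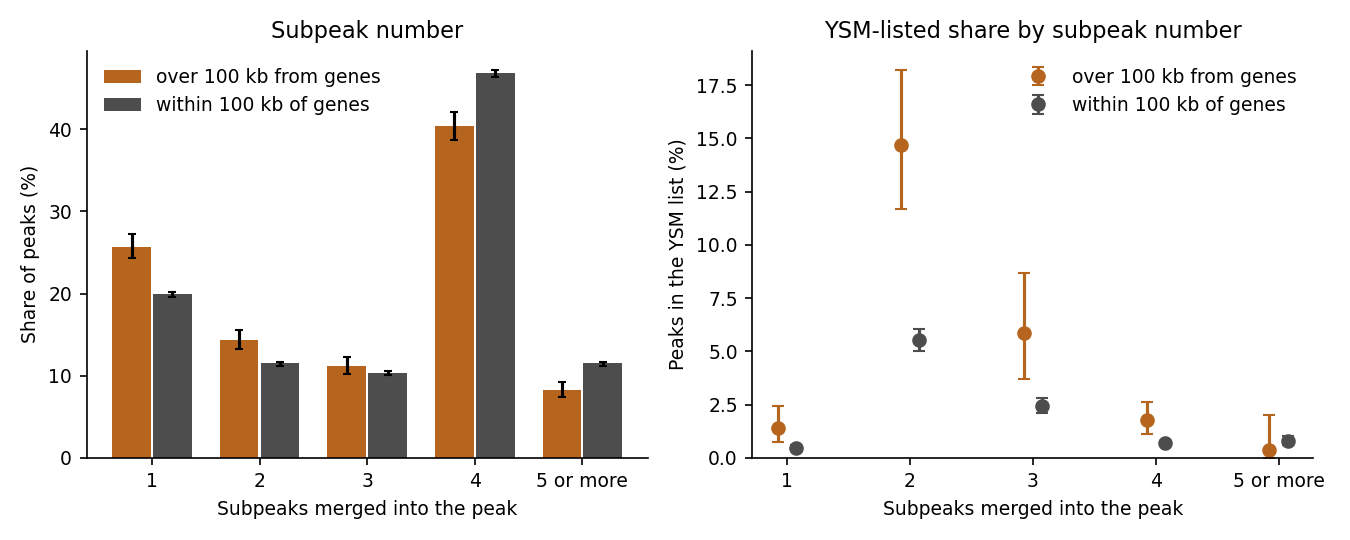
Share of peaks with each number of subpeaks (left, percent) and the YSM-listed share at each number (right, percent), for peaks over and within 100 kb of genes, with exact 95% intervals as bars. The YSM-listed share of desert peaks is highest at 2 subpeaks (14.7%).

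The lists took peaks with different subpeak numbers, in deserts and near genes alike. Of the 130 YSM-listed desert peaks 105 (80.8%) had at most 3 subpeaks, and of the 21 MDM-listed ones 1 (4.76%). Peaks with 2 subpeaks made up 54.6% of the YSM-listed and 4.76% of the MDM-listed peaks in deserts. Near genes they made up 45.7% and 5.75%, so the contrast between the lists was not particular to deserts. With 2 subpeaks, 71 of 482 desert peaks were YSM-listed (14.7%, 11.7 to 18.2), against 5.52% of other peaks with 2 (5.03 to 6.05). With 4 subpeaks the YSM share was 1.77% in deserts (1.14 to 2.62) and 0.680% elsewhere (0.593 to 0.775). At 5 or more it was 0.360%, from 1 of 278 peaks, against 0.790%. The MDM share at 5 or more subpeaks was 3.24% in deserts (1.49 to 6.06) and 0.364% elsewhere (0.244 to 0.522). Among peaks with at least 4 subpeaks the YSM share was 1.53% in deserts and 0.701% elsewhere, so the difference between deserts and other peaks was present there at a lower level. The median width was 231 bp for YSM-listed and 307 bp for MDM-listed desert peaks.

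Desert peaks lay farther apart than other peaks, yet most had a neighbour. Another merged peak lay within 10000 bp of 2328 desert peaks (69.3%, 67.8 to 70.9), against 81.5% of the others (81.2 to 81.8), and the median distance to the nearest was 4305 bp against 2963 bp. When desert peaks were chained at centre gaps of at most 12.5 kb, 380 clusters of 3 or more held 1716 peaks (51.1%), with a median span of 12.7 kb. A further 913 peaks (27.2%) stood alone. Clusters held 46 of the YSM-listed peaks (35.4%), in 24 clusters, and 13 of the MDM-listed ones, in 11. A YSM-listed desert peak had another YSM-listed peak within 10000 bp in 33.1% of cases, and a YSM-listed peak near genes in 29.6%. An MDM-listed desert peak had another MDM-listed peak within 10000 bp in 2 of 21 cases, and an MDM-listed peak near genes in 0 of 87.

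The cluster with the most peaks lay between Enc1, which encodes an actin-binding Kelch protein, and Arhgef28, at chr13:97501624-97584453. It held 16 peaks over 82.8 kb, 12 of them with 4 or more subpeaks and 2 MDM-listed. Between Trib1, a pseudokinase gene that acts in macrophage differentiation, and 4933412E24Rik, 15 peaks spanned 76.0 kb at chr15:59775760-59851723, and 1 was YSM-listed. Between Dusp6, a phosphatase of ERK kinases, and Csl, 13 peaks spanned 58.0 kb at chr10:99409781-99467732. Clusters of 12 lay between Myo16 and Irs2, an insulin receptor substrate, at chr8:10830979-10858291, and between Uaca and Tle3, a transcriptional corepressor, at chr9:61013072-61065405. Cd83 to Jarid2 (chr13:44482658-44538548) and Nmbr to Cited2 (chr10:17518628-17576385) also held a cluster of 12.

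Taking a desert as the stretch between neighbouring protein-coding genes less 100 kb at each end, the chromosomes held 1393 deserts with a gene on both sides. Of these 507 (36.4%) held a peak and 886 none, and 5 more with peaks lay at chromosome ends. The deserts covered 679.7 Mb, 28.0% of the 2429 Mb spanned, at 4.91 peaks per Mb against 39.7 per Mb elsewhere. Deserts with peaks had a median inner length of 360 kb and empty ones of 176 kb. The peaks were unevenly spread over them. The median was 3 peaks, 132 deserts had 1, and 96 with 10 or more held 2021 peaks (60.2%). Length alone did not order them. The longest gap, 4.54 Mb between the protocadherin genes Pcdh20 and Pcdh9, held 2 peaks, and the gap of 4.42 Mb between Olfm4 and Pcdh17 held 0.

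**Figure D3:**
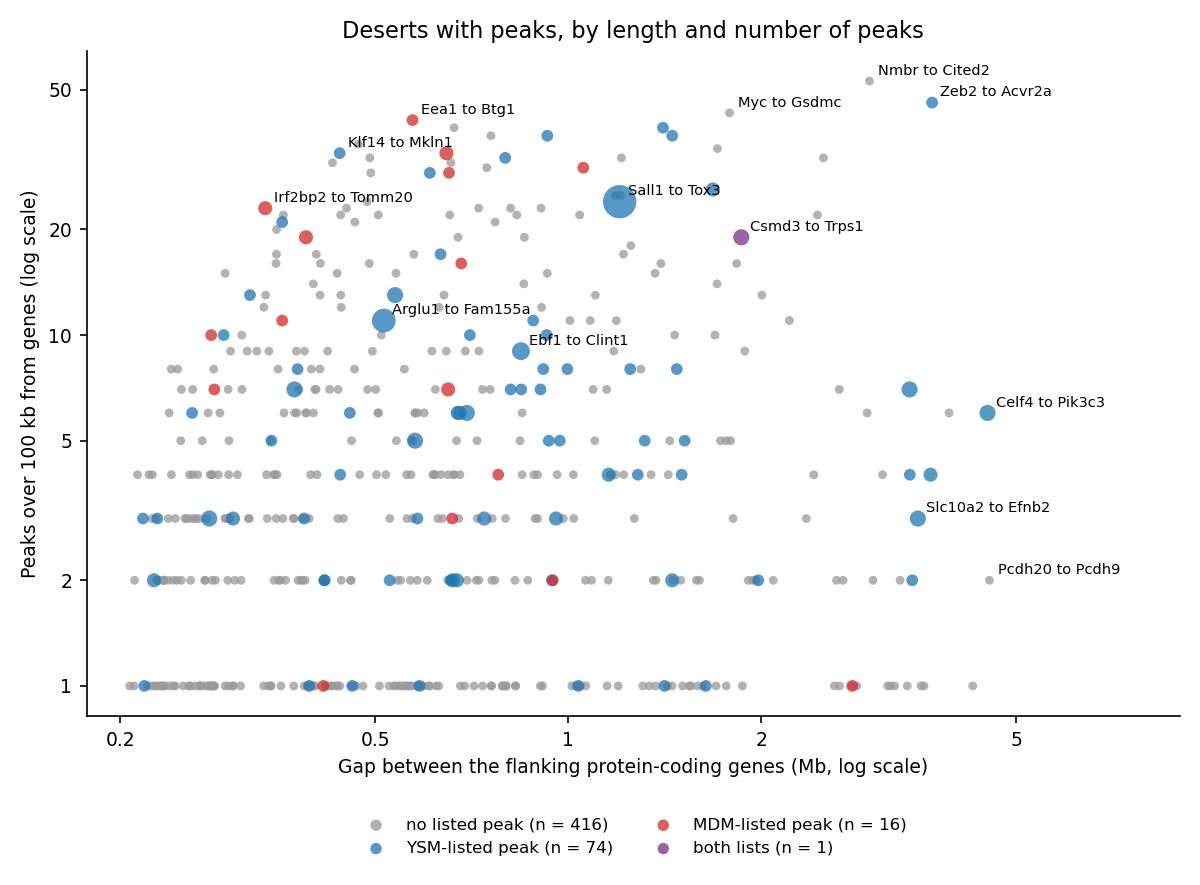
Deserts with a gene on both sides and at least 1 peak (n = 507), by gap length (Mb, log axis) and number of desert peaks (log axis), coloured by the lists, with points that grow with the number of listed peaks. Sall1 to Tox3 stands out by its 17 YSM-listed peaks, and the deserts with the most peaks hold few or none.

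The 15 deserts with the most peaks held 571 (17.0%), of which 5 were YSM-listed (0.876%) and 3 MDM-listed, and 48.9% of their peaks had 4 or more subpeaks. The first was the 2.95 Mb gap between Nmbr and Cited2, a transcriptional coregulator gene, with 53 peaks and 0 listed. Zeb2 to Acvr2a followed with 46 peaks over 3.70 Mb and 1 YSM-listed. Zeb2 is a transcription factor of macrophage identity. Myc to Gsdmc, beside the growth regulator Myc, held 43 peaks and 0 listed. Eea1 to Btg1, beside the antiproliferative gene Btg1, held 41 peaks in 0.571 Mb and 1 MDM-listed. Runx1 to Setd4, beside the blood cell factor Runx1, and Cd83 to Jarid2, beside the immune surface protein gene Cd83, held 37 each. Dhx35 to Gm826 also held 37. The others were Sall3 to Galr1 (39 peaks), Kcnrg to Dleu7 (39), Map3k1 to Ankrd55 (35), Agtr1b to Tbl1xr1 (34), Enc1 to Arhgef28 (33), Klf14 to Mkln1 (33), Adam6a to Zfp386 (32) and Id2 to Rnf144a (32). Adam6a to Zfp386 is the immunoglobulin heavy chain locus, whose gene segments RefSeq does not class as protein-coding, so it is not free of genes.

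Among deserts with at least 10 peaks the densest were Irf2bp2 to Tomm20 with 168 peaks per Mb, Glul to Zfp648 with 164 and Ly86 to Rreb1 with 138. Irf2bp2 encodes a corepressor that binds an interferon regulatory factor, and Ly86 encodes the partner of a Toll-like receptor homologue. These deserts were named by rank after their values were seen.

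The YSM-listed peaks lay in 75 deserts, with 1 peak in 51 of them, and 24 deserts with 2 or more held 79. Sall1 to Tox3 held 17, out of 24 peaks (70.8%), at chr8:89163157-89641567. Sall1 is a transcription factor that marks microglia. None of the 24 had 4 or more subpeaks. On the other side of Sall1, Cyld to Sall1 held 3 YSM-listed peaks of 3, and without both deserts 3.30% of desert peaks were YSM-listed. Arglu1 to Fam155a held 8 of 11 (72.7%) at chr8:8952215-9008497, 7 of them in 1 cluster of 10 peaks over 42.7 kb. Slc10a2 to Efnb2, which ends at the ephrin gene next to Arglu1, held 3 of 3. Ebf1 to Clint1, beside the B cell factor Ebf1, held 4 of 9. A further 6 deserts held 3 each, namely Sfmbt2 to Prkcq, Celf4 to Pik3c3, Rdh14 to Kcns3, Slitrk5 to Gpc5, Fam169b to Arrdc4 and Pabpc6 to Qk. In Adamts5 to N6amt1, Syt1 to Nav3, Eipr1 to Myt1l and Cpeb2 to C1qtnf7 both of the 2 peaks were YSM-listed. In the 24 deserts with 2 or more YSM-listed peaks 36 of 176 peaks (20.5%) had 4 or more subpeaks, against 48.7% of all desert peaks. The 176 include the 79 listed peaks by which these deserts were chosen. Of all 130 YSM-listed desert peaks 105 had at most 3 subpeaks, so the choice itself lowers that share. Chromosome 8 held 34 of the 130, which was 14.7% of its 231 desert peaks, and without it the YSM share of desert peaks was 3.07%.

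**Figure D4:**
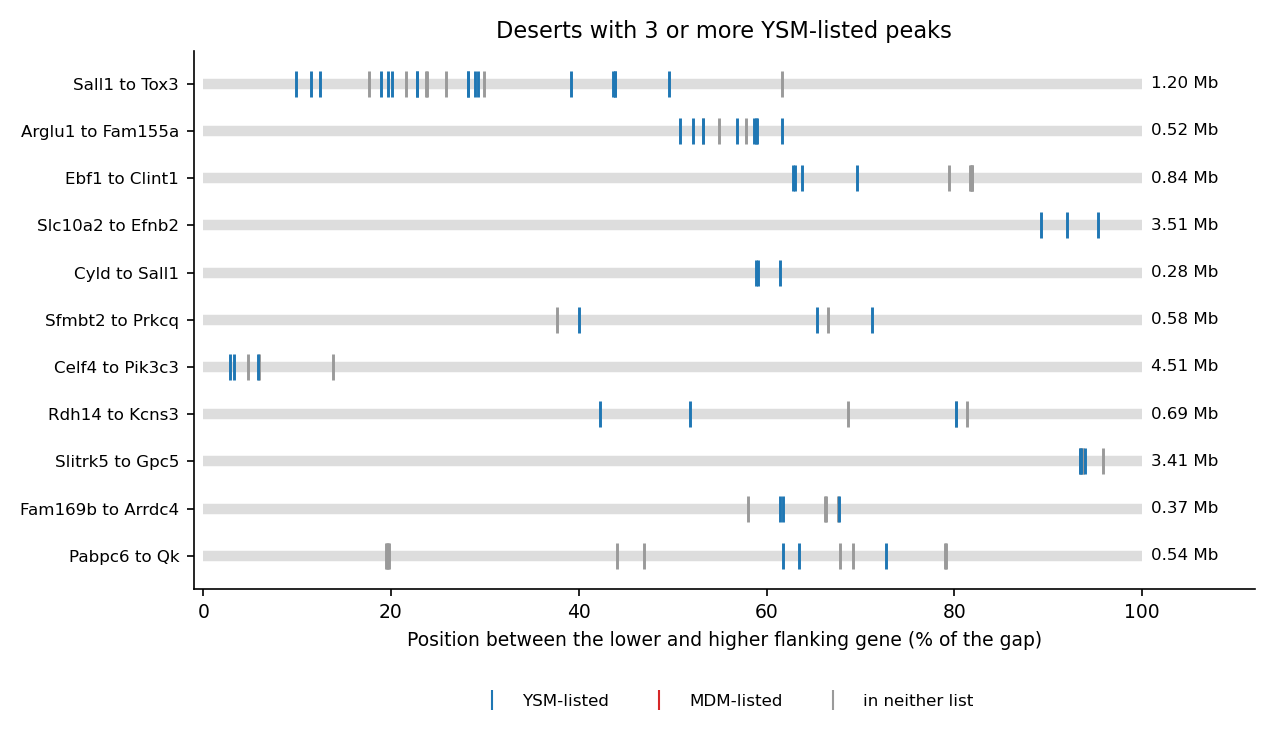
Positions of desert peaks (vertical lines) in the deserts with 3 or more YSM-listed peaks, as percent of the gap between the flanking genes, coloured by list, with the length of the gap at the right. Sall1 to Tox3 shows 17 YSM-listed peaks of 24.

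The MDM-listed peaks lay in 17 deserts that held a median of 11 peaks, against 5 in deserts with a YSM-listed peak. Their peaks, which include the 21 MDM-listed ones by which these deserts were chosen, had 4 or more subpeaks in 156 of 256 cases (60.9%). Enc1 to Arhgef28, Irf2bp2 to Tomm20, Rap2a to Ipo5 and Tle1 to Aldoart1 held 2 each. The pair between Rap2a and Ipo5 lay side by side at chr14:120741305-120741591 and chr14:120741646-120741856. Among the others, 1 peak lay at chr1:128705179-128705435, 113008 bp from Cxcr4, the receptor of the chemokine Cxcl12. Another lay at chr6:117431352-117431594, 250105 bp from Cxcl12 itself. In Abca1 to Slc44a1, the desert of Mexis, the MDM-listed peak was at chr4:53307183-53307628 with 5 subpeaks. The remaining deserts with 1 were Eea1 to Btg1, Ptger4 to Dab2, Dusp10 to Hlx, Csmd3 to Trps1, Tmx1 to Frmd6, Smim20 to Rbpj, 4930474N05Rik to Ccser2, Cntn3 to Chl1, Cox7c to Edil3 and Ccdc91 to Far2. Csmd3 to Trps1 was the desert that held peaks of both lists, with 2 YSM-listed.

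**Figure D5:**
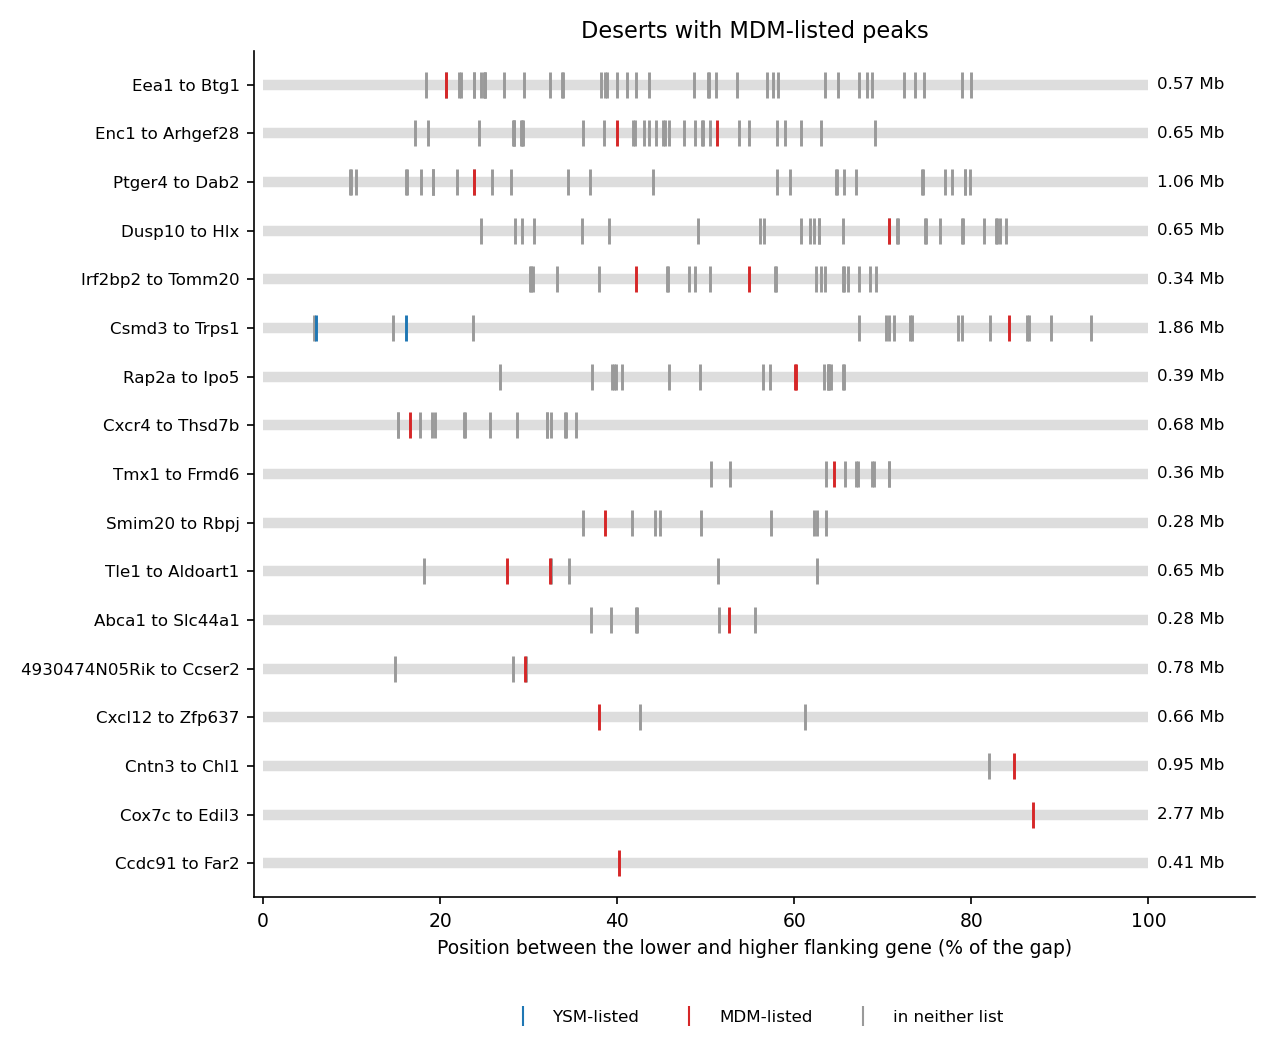
Positions of desert peaks (vertical lines) in the deserts with MDM-listed peaks, as percent of the gap between the flanking genes, coloured by list, with the length of the gap at the right. Enc1 to Arhgef28 shows 2 MDM-listed peaks of 33, and Cox7c to Edil3 and Ccdc91 to Far2 show 1 of 1.

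The MDM-listed desert peaks with the most subpeaks had 8 each, at chr15:50361596-50362216 in Csmd3 to Trps1, chr15:5495348-5495855 beside the prostaglandin receptor gene Ptger4, and chr4:72411511-72411972 beside the corepressor gene Tle1. The highest of the YSM-listed was 5, at chr2:17065303-17065661 between Plxdc2 and Nebl. Unlisted peaks reached 12, at chr13:6241118-6241886 between Klf6, a zinc finger factor, and Pitrm1. The farthest peak from any protein-coding gene, at 1811986 bp, was YSM-listed with 4 subpeaks, at chr5:59996748-59996966 between Pcdh7 and G6pd2. Between Zeb2 and Acvr2a 3 peaks lay 1753838, 1725385 and 1725174 bp from genes, and the last, at chr2:47088831-47089040, was YSM-listed.

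Genes flanking deserts with peaks (n = 956) were set beside those flanking only empty deserts (n = 1422). Macrophage transcription factor genes made up 23 of the former (2.41%) and 6 of the latter (0.422%), against 0.353% of 20665 protein-coding genes, and 11 of the 190 genes flanking deserts with 10 or more peaks (5.79%). Over all desert peaks 3.87% were YSM-listed and 0.626% MDM-listed, and the shares beside each group are to be read against these. The deserts of the macrophage factors held 352 peaks, of which 24 were YSM-listed (6.82%) and 0 MDM-listed. Without the deserts on either side of Sall1, 4 of 325 were YSM-listed (1.23%), against 3.30% of all desert peaks outside those deserts. The 4 lay in Zeb2 to Acvr2a, Ets2 to Psmg1, Mc2r to Tcf4 and Sall3 to Galr1. Klf4 to Actl7b (25 peaks), Jun to Fggy (22), Wwox to Maf (20) and Prdm1 to Prep (15) held 0 listed peaks. That was usual, since of 512 deserts with peaks 75 held a YSM-listed peak and 17 an MDM-listed one. The 5 microglial identity genes Mef2c, Nav3, Sall1, Sall3 and Tgfbr2 flanked 90 peaks, of which 23 were YSM-listed (25.6%), and without the Sall1 deserts 3 of 63 were (4.76%), near the share over all desert peaks. The monocyte genes F13a1, Fn1, Itga4 and Klf4 flanked 43 peaks with 0 listed, a number too small to set apart from shares of 3.87% and 0.626%. The gene lists overlap, so the same peaks can count in several groups. Klf4, whose desert held 25 of the 43, was also in the macrophage factor list, as were Mef2c, Sall1 and Sall3.

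Developmental transcription factor genes were 5.33% of the flanks with peaks and 4.78% of those without, both above the 1.51% of all genes, and their deserts held 413 peaks with 35 YSM-listed (8.47%). The list also held the catenin genes Ctnna2 and Ctnna3, which are not transcription factors, and they stay in its shares and counts. Sall1 is in this list too, as are Klf4, Klf6, Prdm1, Sall3 and other macrophage factors. Without the Sall1 deserts 15 of 386 were YSM-listed (3.89%, exact 95% interval 2.19 to 6.33), against 3.30% of all desert peaks outside them. Synaptic and cell adhesion genes were 3.56% and 3.16%, with a median of 2 peaks per desert, against 3 over all deserts with peaks. Of their 136 desert peaks 10 were YSM-listed (7.35%, against 3.87% over all desert peaks) and 1 MDM-listed (0.735%). Axon guidance genes were 1.26% of the flanks with peaks and 1.69% of those without, and 6 of their 73 peaks were YSM-listed (8.22%). Of these 6, 3 lay in the single desert Slc10a2 to Efnb2, and the count is too small to set apart from 3.87%. Ion channel and neurotransmitter receptor genes were 1.99% of the flanks with peaks and 3.73% of those without, and 5 of their 95 peaks were YSM-listed (5.26%). That list also held Kcnrg, a channel regulator gene and not a channel gene, whose desert gave 39 of the 95 peaks with 0 listed. The YSM share was 2.35% beside TGF-beta, BMP, FGF and WNT genes (2 of 85) and 0.840% beside phosphatase and kinase signalling genes (1 of 119). These counts are too small to set the YSM share there apart from 3.87%. Beside predicted genes it was 2.14%, from 8 of 373 peaks. Chemokine, cytokine and receptor genes flanked 46 peaks, of which 1 was YSM-listed (2.17%) and 2 MDM-listed (4.35%), counts too small to set apart from 3.87% and 0.626%. Olfactory and vomeronasal receptor genes, in a list of 7.30% of all genes that also held the taste receptor gene Tas2r134, were 4 of the 956 flanks with peaks, Tas2r134 included. Markers of neurons, glia and vessels were 3 (Aqp4, Slc1a3 and Syt1) with 4 peaks, 2 of them YSM-listed. Those 2 lay in Syt1 to Nav3 and are also counted under the microglial identity gene Nav3. Markers of lymphocytes and granulocytes were 2 (Ebf1 and Tox) with 10 peaks, of which 4, all in Ebf1 to Clint1, were YSM-listed.

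Desert peaks were not all outside annotated genes. Long non-coding RNA genes held 828 of them (24.7%), and 276 lay over 100 kb from a gene of any kind. The YSM share was 2.29% inside long non-coding RNA genes and 4.39% outside them, and the MDM share 0.121% and 0.791%. Of the 276 peaks far from every kind of gene, 7.97% were YSM-listed. None of the 100 microRNA hairpins in deserts was overlapped by a desert peak, and 5 lay within 3000 bp of one. The Mir29b-1 and Mir29a hairpins lay 2408 and 2754 bp from the YSM-listed peak of Klf14 to Mkln1, at chr6:31065501-31065746 with 4 subpeaks. Their 3p arms are shown with the seed, bases 2 to 8, in capitals, from RefSeq on GRCm38.p6 and read from the minus strand, because the seed is the same in both.
miR-29a-3p: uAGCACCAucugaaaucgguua
miR-29b-3p: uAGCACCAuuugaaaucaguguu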

How the data were processed

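Chromatin accessibility had been measured in 4 libraries, and 3 deposited interval lists were used. Per the submitters' processing notes, the tools were HOMER, Picard, Bowtie2 2.2.5 and Trimmomatic 0.39, and the build was mm10. Library-level peaks were joined into 1 list with mergePeaks, per the file headers. Settings, any Tn5 shift and the cut-offs of the differential lists were not given in the sources used here. In the deposited files a score column, 1 in every merged interval, has no stated meaning and was not used.

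Subpeak numbers came from the interval names. Distances ran from a peak's centre to the merged bodies of 20665 protein-coding genes of the RefSeq table of GRCm38.p6, and coordinates are 1-based. Shares have exact Clopper-Pearson 95% intervals from scipy 1.17.1, with pandas 2.3.3, numpy 2.4.6 and Python 3.11.15, and figures were drawn with matplotlib 3.10.9. The geometry was tested on simulated intervals.

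The text names the 15 deserts with the most peaks and the 15 with the most YSM-listed peaks, deserts with MDM-listed peaks, the 5 clusters with the most peaks and the other 2 tied with the last, and peaks among the 5 with the most subpeaks or farthest from genes. The rule stopped at 15 deserts with MDM-listed peaks, and all 17 are named. Longest, densest and non-coding items, and some deserts beside listed genes, were added after their values were seen. The members and gene lists were chosen with earlier results of these data known. Base composition and motifs of the peaks themselves were planned and are not analysed here for want of a genome sequence. Alternatives changed the distance, the gene set, the subpeak minimum, merging and neighbour distance.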

Additional observations from a re-analysis of the deposited data

How the results depend on the processing

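Across 59 alternatives for 7 main results, 30 stayed within the main interval (or within 1.5 times a count) and 29 moved. The YSM share was above that of other peaks in 13 of 13 alternatives and the MDM share in 10 of 10. The number of desert peaks was 6352 at 50000 bp, 1356 at 200000 bp, 276 with genes of every kind and 1634 with at least 4 subpeaks. The YSM share was 2.99% at 50000 bp, 5.38% at 200000 bp, 7.97% with genes of every kind, 4.73% with at least 2 subpeaks, 1.53% with at least 4 and 3.07% without chromosome 8. The MDM share was 2.54% with genes of every kind and 1.22% with at least 4 subpeaks. The share with at most 3 subpeaks was 48.9% at 50000 bp, 54.9% at 200000 bp, 55.4% with genes of every kind, 34.5% with at least 2 subpeaks and 45.7% with peaks within 1000 bp merged, and it has no value with at least 4 by construction. The share with a neighbour within 10000 bp was 71.5% at 50000 bp, 64.2% at 200000 bp, 55.4% with genes of every kind, 61.3% with at least 2 subpeaks, 55.4% with at least 4 and 56.4% with merged regions, and it was 52.3% within 5000 bp and 91.1% within 50000 bp. Deserts with peaks numbered 1055 at 50000 bp, 224 at 200000 bp and 102 with genes of every kind. Clusters numbered 211 when chained at 5000 bp. Other distances, subpeak minimums and gene sets change which peaks are counted, and the cause was not tested further. Leaving out both Sall1 deserts (also for the gene lists), counting immune receptor segments as genes and the other chaining distances were chosen after seeing the data. No paired analysis was possible because the files hold no values per library, and leaving out a library was not run for the same reason. Depth per library was not analysed here, so a missing call and low coverage cannot be told apart.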

Other observations

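Chromosome X lay outside the rule. It held 1754 merged peaks, of which 115 (6.56%) lay over 100 kb from a protein-coding gene, in 24 deserts. Of these, 69 had at most 3 subpeaks, 1 was in the YSM list and 0 in the MDM list.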
